A study of Homo sapiens with 6 samples.

Results

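Metallothioneins are small, cysteine-rich proteins that bind zinc, copper and other metal ions. The 10 genes described here are MT1A, MT1E, MT1F, MT1G, MT1H, MT1M, MT1X and MT2A, which encode metallothioneins, MTF1, which encodes the metal-responsive transcription factor, and SLC30A1, which encodes the zinc exporter ZnT1 of the plasma membrane. They were chosen by name, and all 10 of them have a row among the 60591 genes of the count table. The cells were KYSE150, an established human line from an oesophageal squamous cell carcinoma. In the TPA group they received the phorbol ester TPA, which activates protein kinase C, at 10 ng/ml for 24 h (3 libraries). The other group is labelled DMSO, the solvent (3 libraries, with no dose or time stated). Both groups were kept in medium without serum overnight beforehand, per the labels. RNA was sequenced, and the deposited values are raw read counts per gene.

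In human cells, zinc ions bind MTF1, which then binds metal response elements in the promoters of metallothionein genes and of SLC30A1 and raises their transcription. Metallothioneins store and buffer zinc, and ZnT1 carries it out of the cell. Metallothionein genes are also known to respond to glucocorticoids, oxidants, cytokines and phorbol esters, and MT2A is the most abundant of them in many human epithelial cells.

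The promoters of MT2A, MT1X, MT1H and SLC30A1 are shown. MT2A was the most abundant of the set, MT1X was low, MT1H was undetected and SLC30A1 is the other known kind of MTF1 target. Promoter windows, taken from RefSeq on build GRCh38.p14, run from 250 bases before to 50 bases after the RefSeq gene start and were found for 5 of the 10 genes (these 4 and MTF1). The source held no window for MT1A, MT1E, MT1F, MT1G and MT1M, so their promoters were not searched. Gene positions elsewhere in the text are those of GENCODE 29, whose start can differ. The RefSeq start lies 385 bases downstream of the GENCODE start for MT2A, 46 for MT1X and 28 for MTF1, at the same base for MT1H and 419 bases upstream for SLC30A1. The window of MT2A thus lies within the GENCODE gene model and that of SLC30A1 lies wholly upstream of it. Capitals mark matches to the core of the metal response element, searched as TGCACNC and TGCGCNC on both strands.
MT2A (chr16:56608334-56608633, plus strand): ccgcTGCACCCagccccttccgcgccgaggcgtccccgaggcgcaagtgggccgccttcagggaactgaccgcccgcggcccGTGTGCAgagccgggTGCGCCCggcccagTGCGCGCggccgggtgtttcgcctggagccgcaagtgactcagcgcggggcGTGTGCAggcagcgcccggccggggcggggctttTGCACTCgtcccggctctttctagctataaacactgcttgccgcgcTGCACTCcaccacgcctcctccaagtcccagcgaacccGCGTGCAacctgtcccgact
MT1X (chr16:56682220-56682519, plus strand): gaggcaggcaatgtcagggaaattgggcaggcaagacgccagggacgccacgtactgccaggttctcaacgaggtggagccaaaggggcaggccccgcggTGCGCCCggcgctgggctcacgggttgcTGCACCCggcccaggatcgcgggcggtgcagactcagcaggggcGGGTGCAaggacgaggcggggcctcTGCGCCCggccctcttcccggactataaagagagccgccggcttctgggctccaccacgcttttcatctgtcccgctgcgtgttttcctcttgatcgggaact
MT1H (chr16:56669564-56669863, plus strand): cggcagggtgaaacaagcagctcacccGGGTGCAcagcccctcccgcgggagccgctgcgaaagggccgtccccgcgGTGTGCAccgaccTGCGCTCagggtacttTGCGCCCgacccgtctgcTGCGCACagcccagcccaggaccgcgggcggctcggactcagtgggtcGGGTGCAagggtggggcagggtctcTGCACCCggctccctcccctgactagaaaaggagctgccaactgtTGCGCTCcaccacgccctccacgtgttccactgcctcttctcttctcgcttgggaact
SLC30A1 (chr1:211579112-211579411, minus strand): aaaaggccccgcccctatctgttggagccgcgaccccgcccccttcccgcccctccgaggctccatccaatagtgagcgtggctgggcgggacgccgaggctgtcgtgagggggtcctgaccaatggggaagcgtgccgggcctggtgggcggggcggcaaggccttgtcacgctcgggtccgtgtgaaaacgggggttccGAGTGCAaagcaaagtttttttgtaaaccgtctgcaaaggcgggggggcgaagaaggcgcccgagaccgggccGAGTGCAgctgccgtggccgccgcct

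The MT2A and MT1H windows held 8 matches each to the metal response element core, the MT1X window 4 and the SLC30A1 window 2. The MTF1 window held 0, which says only that these letters are not in it. Of 27305 promoter windows of this length in the table, 8014 (29.35%) held at least 1 match, 162 (0.593%) at least 4 and 6 (0.0220%) at least 8. The window of MT2A also held 1 match to the AP-1 motif, searched as TGACTCA and TGAGTCA on both strands, and no other window of the 5 held one. MT1E was not among the 5, so whether its promoter holds a match is not known here. AP-1, a dimer of FOS and JUN family proteins, binds this motif, which is also called the TPA response element and was characterised in part on the human MT2A promoter. At least 1 AP-1 match was present in 1344 of the 27305 windows (4.92%). The match in MT2A begins 104 bases before the RefSeq start, overlaps no metal response element match and stands in capitals in this stretch.
MT2A, AP-1 match: ggagccgcaagTGACTCAgcgcggggcgt

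**Figure D1:**
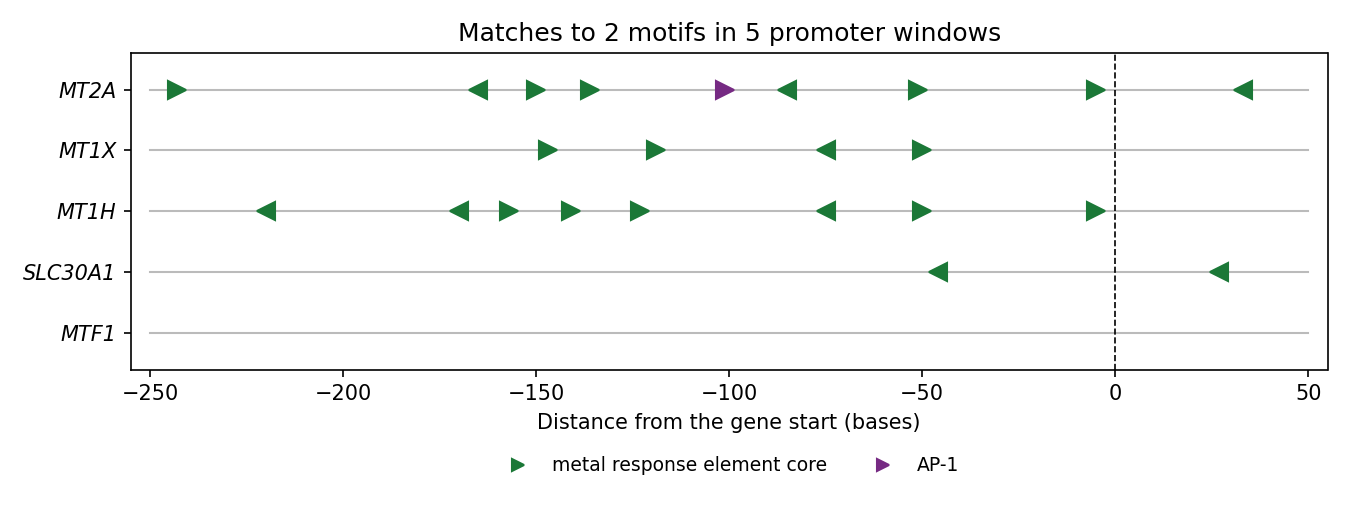
Matches to the metal response element core (green) and to the AP-1 motif (purple) in the promoter windows of 5 genes, with the distance from the RefSeq gene start in bases on the horizontal axis and 1 gene per row. Arrowheads point right for the plus strand of the gene and left for the other strand; MT2A and MT1H hold 8 metal response element matches each, MTF1 holds 0, and the 1 AP-1 match lies in MT2A.

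Each library held between 27702329 and 33965547 counts, and the TPA libraries had TMM factors (edgeR's scaling for composition) of 0.890 to 0.955, against 1.08 to 1.11 in DMSO. Libraries numbered 1 stood apart from those numbered 2 and 3 in both groups. Across genes, log2 CPM (read counts scaled for library depth, per 1e6) of TPA 1 correlated at 0.974 with DMSO 1, above its 0.927 with TPA 2 and 0.936 with TPA 3. DMSO 1 differed less from its group. It correlated at 0.978 with DMSO 2 and 0.977 with DMSO 3, below the 0.993 between DMSO 2 and DMSO 3 but above its 0.974 with TPA 1. The log2 ratio of TPA to DMSO libraries of 1 number followed transcript GC content over 11787 genes for numbers 2 and 3 (Spearman correlation 0.681 and 0.620) but not for number 1 (-0.115). The squamous keratin, adhesion and lineage markers listed for the cell line (8 of 8 tested) summed to 1234 to 2582 CPM in TPA libraries and 1585 to 3336 CPM in DMSO libraries. Of these 8 markers 0 passed in edgeR (4 at an unadjusted p under 0.05, 2 with DESeq2 and 0 with limma-voom). Of all 21825 genes tested, edgeR gave 4814 an unadjusted p under 0.05, and DESeq2 called 1702 higher and 915 lower. With replicate number added as a block the fit called 1 marker higher and 2 lower, where it called 4.58% of all genes higher and 6.52% lower. The basal keratin gene KRT5 (-2.10 ± 0.27 on the log2 scale, adjusted p = 0.00151) and TP63, a regulator of squamous identity (-1.19 ± 0.24, 0.0144), were lower, and KRT6A, a keratin gene of activated epithelium, was higher (3.35 ± 0.43, 0.00153). These were picked after their values were seen, and their part in the metallothionein values was not tested. Markers of leukocytes summed to 2.54 to 3.19 CPM in TPA and 3.00 to 4.52 CPM in DMSO, those of endothelium to 0.979 to 2.25 and 2.20 to 2.93 CPM, and those of fibroblasts to 3.01 to 10.4 and 5.20 to 12.1 CPM, with DCN at 0 counts in every library. Whether each library came from its own culture is not stated, and p-values therefore reflect the spread among these 6 libraries, which may be technical.

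MT2A and MT1E rose after TPA, MT1X and MT1F did not pass the test, 4 metallothionein genes were at or near 0 counts, and MTF1 and SLC30A1 did not pass. Of the 10 genes, 6 passed the filter on low counts and were tested, of which 2 rose and 0 fell with the threshold set at an adjusted p of 0.05 (edgeR quasi-likelihood, Benjamini-Hochberg over 21825 genes). In that test 0.861% of all genes were called higher and 0.394% lower. The median log2 fold change of the 6 was 0.66, against -0.11 for all genes tested. In bulk RNA, more RNA per cell and more cells of the expressing kind cannot be told apart.

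MT2A encodes metallothionein 2A (chromosome 16, 56608199 to 56609497 on GRCh38, plus strand). Its level was 892, 986 and 929 CPM in TPA libraries 1, 2 and 3, against 344, 188 and 190 CPM in DMSO libraries 1, 2 and 3. All TPA libraries lay far above all DMSO libraries, and DMSO 1 was the highest of the DMSO group. Means were 936 ± 47.3 CPM in TPA and 241 ± 89.6 CPM in DMSO (SD, n = 3 each). TPA exceeded DMSO by 1.96 ± 0.28 on the log2 scale (SE; 3.89-fold), with an edgeR adjusted p of 0.0350. Between libraries of the same number the log2 ratio was 1.37, 2.39 and 2.29 for numbers 1, 2 and 3, so the smallest rise was that of number 1. Ranked by CPM per kilobase of exon among 21003 tested genes with a known length, MT2A was between the 14th and 27th highest gene in TPA libraries and between the 62nd and 145th in DMSO libraries.

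MT1E, a metallothionein 1 gene of the same cluster (chromosome 16, 56625475 to 56627112, plus strand), followed the same pattern at a lower level. It had 126, 155 and 134 CPM in TPA libraries 1, 2 and 3, against 57.4, 47.7 and 47.8 CPM in DMSO libraries 1, 2 and 3. The groups did not overlap, and DMSO 1 was again the highest of its group. Means were 138 ± 15.0 CPM in TPA and 51.0 ± 5.55 CPM in DMSO (SD, n = 3 each). The log2 difference was 1.44 ± 0.21 (SE; 2.71-fold, edgeR adjusted p = 0.0350). Per kilobase of exon MT1E had 131 ± 14.2 CPM in TPA and 48.4 ± 5.28 CPM in DMSO, while MT2A had 720 ± 36.4 and 185 ± 69.0 CPM (SD, n = 3 each). Among metallothionein genes MT2A was thus the highest per length in both groups, followed by MT1E.

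The calls of MT2A and MT1E depended on the libraries kept, as did the number of genes called: without DMSO 2 or without DMSO 3, edgeR called 0 genes of the whole table (2612 and 2745 at an unadjusted p under 0.05). Leaving out 1 library at a time, MT2A passed in 2 of 6 fits (without TPA 1, adjusted p = 0.000788, and without DMSO 1, 0.0285) and MT1E in 1 of 6 (without TPA 1, 0.000414). In the other fits the edgeR adjusted p of MT2A lay between 0.105 and 0.273, with log2 fold changes of 1.82 to 1.98, and that of MT1E between 0.0583 and 0.293, with 1.37 to 1.54. The fit without TPA 1 called 5577 of 22633 genes higher and 6297 lower, so a call there is common. That without DMSO 1 called 101 of 22475 genes higher and 38 lower.

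MT1X (chromosome 16, 56682424 to 56684196, plus strand) was higher in every TPA library but did not pass. It had 8.70, 9.28 and 9.07 CPM in TPA libraries 1, 2 and 3, against 6.09, 5.25 and 4.33 CPM in DMSO libraries 1, 2 and 3. Means were 9.01 ± 0.291 CPM in TPA and 5.22 ± 0.879 CPM in DMSO (SD, n = 3 each), and the log2 difference was 0.79 ± 0.24 (SE, edgeR adjusted p = 0.115). The groups did not overlap, as for MT2A and MT1E, and in 14.3% of all genes tested every TPA library was likewise above every DMSO library (in 15.2% every one was below). With DESeq2, which called 7.8% of genes higher, MT1X passed (0.89, adjusted p = 0.0127).

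MT1F (chromosome 16, 56657694 to 56660698, plus strand) differed in direction between library numbers. It had 3.55, 11.1 and 9.68 CPM in TPA libraries 1, 2 and 3, against 4.87, 5.95 and 5.96 CPM in DMSO libraries 1, 2 and 3. TPA 1 was thus the lowest of the 6 libraries and TPA 2 and TPA 3 were the highest, so the groups overlapped. The log2 fold change was 0.54 ± 0.42 (SE, edgeR adjusted p = 0.478), and the log2 ratio was -0.45, 0.90 and 0.69 for libraries numbered 1, 2 and 3. Without TPA 1 the log2 fold change was 1.01 (edgeR adjusted p = 0.00294), in a fit that called 5577 of 22633 genes higher and 6297 lower. With both libraries numbered 1 left out, a setting in which 32.2% of all genes were called higher and 33.3% lower, 5 of the 6 tested genes were higher and 0 lower, namely MT2A, MT1E, MT1X, MT1F and MTF1.

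**Figure D2:**
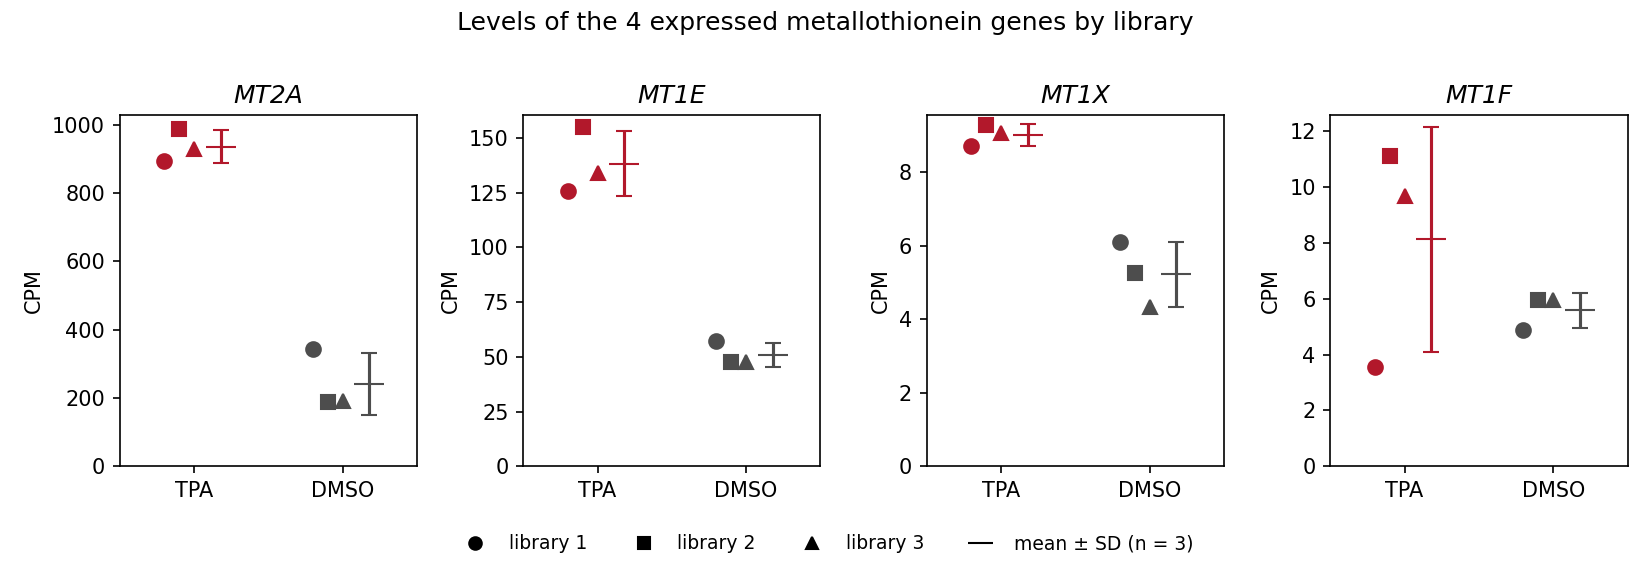
CPM (vertical axis, linear, from 0) of MT2A, MT1E, MT1X and MT1F in the 3 TPA libraries (red, left in each panel) and the 3 DMSO libraries (grey), with the marker shape giving the library number and bars giving mean ± SD (n = 3). MT2A, MT1E and MT1X show no overlap between groups, while for MT1F TPA 1 (3.55 CPM) lies below every DMSO library.

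The other metallothionein genes were close to undetected in both groups. MT1G and MT1H had 0 counts in all 6 libraries. MT1A had 1 count in each TPA library and 0 in each DMSO library, and MT1M had 0, 1 and 1 counts in TPA libraries 1, 2 and 3 and 0 in each DMSO library. A listed 0 is compatible with at most 0.0978 to 0.109 CPM in TPA and 0.0915 to 0.0987 CPM in DMSO (3 counts over the scaled library size, counting error only), so no fold change is given for these 4 genes. At this depth MT1H was not detected although its promoter window holds as many metal response element matches as that of MT2A.

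Metallothionein genes are close relatives, so reads can be split among copies. Of all windows of 50 bases in the GENCODE 29 transcripts of MT2A, 3.02% occurred in a transcript of another gene, against 7.10% for MT1E, 1.22% for MT1F and 18.3% for MT1X. With windows of 100 bases these shares were 0%, 0%, 0% and 11.3%. The gene most often sharing windows with MT1X was AC026461.1, which overlaps it on the same strand (chromosome 16, 56682470 to 56687807) and was listed at 0 counts in every library, so the level of MT1X is uncertain. The sources used here give neither the read length nor the handling of ambiguous reads.

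Summed over all 20 metallothionein rows, which does not depend on how reads were split among these rows, the level was 1032, 1163 and 1084 CPM in TPA libraries 1, 2 and 3, against 414, 248 and 249 CPM in DMSO libraries 1, 2 and 3. Every TPA library had more than 2 times the sum of any DMSO library. The group means were 1093 ± 66.3 CPM in TPA and 304 ± 95.5 CPM in DMSO (SD, n = 3 each), a ratio of 3.60. As a share of all counts of the library, without TMM scaling, the means were 0.0999% and 0.0330%, a ratio of 3.02. With library size as the only scaling, the log2 fold change was 1.71 for MT2A and 1.19 for MT1E. MT2A made up 85.7 ± 0.858% of the summed counts in TPA and 78.4 ± 4.10% in DMSO, and MT1E 12.6 ± 0.605% and 17.4 ± 3.09% (SD, n = 3 each). The share of MT2A was 84.8% to 86.5% in TPA libraries and 75.9% to 83.1% in DMSO libraries, without overlap.

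**Figure D3:**
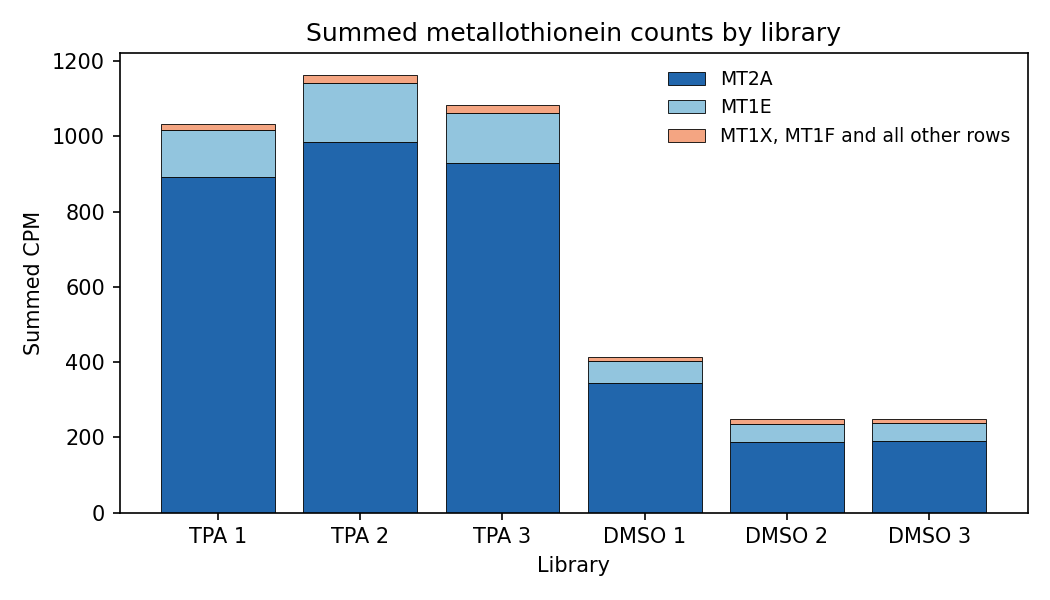
Summed CPM of all metallothionein rows (vertical axis) for each library, with bars stacked by MT2A, MT1E and all other rows together. The TPA libraries reach 1032 to 1163 CPM and the DMSO libraries 248 to 414 CPM, and MT2A is the largest part of each bar.

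Of the 12 further metallothionein genes and pseudogenes with a row, 6 had a count and 2 passed the filter. MT2P1, a processed pseudogene of MT2A (chromosome 4, 68376323 to 68376505), had 0.870, 1.65 and 1.43 CPM in TPA libraries 1, 2 and 3, against 0.494, 0.183 and 0.456 CPM in DMSO libraries 1, 2 and 3. Its log2 fold change was 1.80 ± 0.48 (SE, edgeR adjusted p = 0.0894, and 0.0439 with the replicate block). With GC correction plus block it was 1.45 ± 0.43 and did not pass (adjusted p = 0.0626). Of its windows of 50 bases 15.7% occurred in transcripts of other genes, most often in MT2A, and in those windows reads of both genes cannot be told apart. MT1P1, another processed pseudogene (chromosome 9, 95413267 to 95413449), had 0.326, 0.101 and 0.196 CPM in TPA libraries 1, 2 and 3, against 0.625, 0.488 and 0.521 CPM in DMSO libraries 1, 2 and 3 (log2 fold change -1.38 ± 0.50, edgeR adjusted p = 0.165). MT1JP, MT1L, MT1P3 and MT1XP1 summed to 3, 2, 1 and 17 counts in TPA and 2, 5, 5 and 13 counts in DMSO. MT1B, MT3, MT4, MT1CP, MT1DP and MT1HL1 had 0 counts in every library, and MT1IP was not analysed here.

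MTF1, the zinc-sensing activator of these genes (chromosome 1, 37809567 to 37859620, minus strand), had similar mean levels in both groups and did not pass the test. It had 139, 80.8 and 90.8 CPM in TPA libraries 1, 2 and 3, against 127, 83.6 and 76.4 CPM in DMSO libraries 1, 2 and 3. In both groups library 1 was the highest, and the groups overlapped. Means were 103 ± 31.0 CPM in TPA and 95.6 ± 27.3 CPM in DMSO (SD, n = 3 each), and the log2 difference was 0.11 ± 0.30 (SE, edgeR adjusted p = 0.847; -0.12 with library size as the only scaling). With both libraries numbered 1 left out, where 32.2% of all genes were called higher, MTF1 was called higher (0.26, edgeR adjusted p = 0.0207). This transcript level does not report on the activity of the protein.

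SLC30A1, which like the metallothioneins is a target of MTF1 (chromosome 1, 211571568 to 211578742, minus strand), was low in both groups. It had 7.47, 2.82 and 3.88 CPM in TPA libraries 1, 2 and 3, against 10.5, 3.57 and 4.01 CPM in DMSO libraries 1, 2 and 3. Each TPA library was below the DMSO library of its number, library 1 was the highest in each group, and the groups overlapped. The log2 fold change was -0.35 ± 0.53 (SE, edgeR adjusted p = 0.722), and leaving out DMSO 1 turned it to 0.32 (adjusted p = 0.762). Per kilobase of exon SLC30A1 had 0.863 ± 0.445 CPM in TPA and 1.10 ± 0.709 CPM in DMSO, and MTF1 12.9 ± 3.87 and 11.9 ± 3.40 CPM (SD, n = 3 each).

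**Figure D4:**
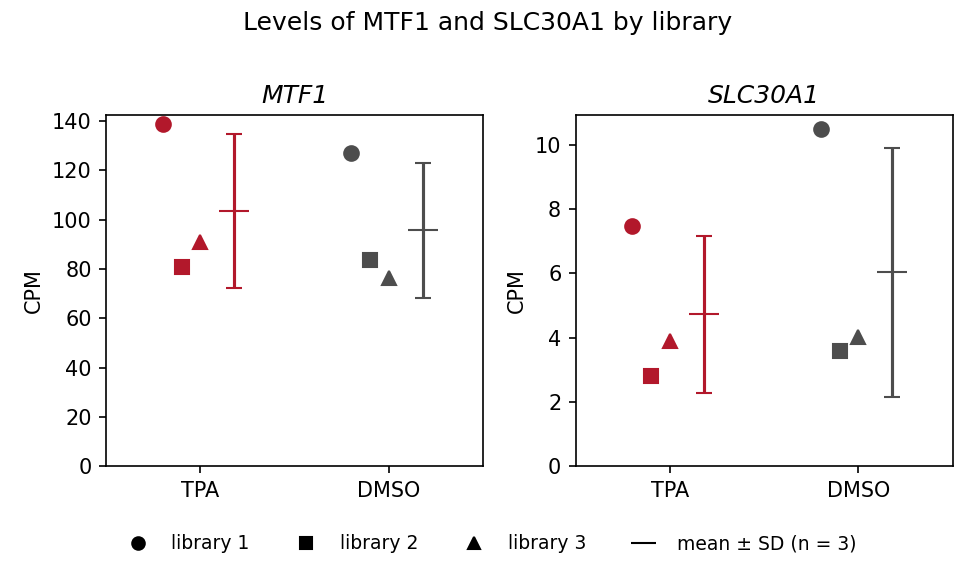
CPM (vertical axis, linear, from 0) of MTF1 and SLC30A1 in the 3 TPA libraries (red, left in each panel) and the 3 DMSO libraries (grey), with the marker shape giving the library number and bars giving mean ± SD (n = 3). Library 1 is the highest of its group for both genes, and the groups overlap.

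Because log2 ratios followed GC content in libraries numbered 2 and 3, the genes were also fitted with the GC trend of every library taken out and the replicate number as a block. This fit called 9.17% of genes higher and 10.8% lower. The longest transcripts of MT2A, MT1E, MT1X and MT1F had a GC content of 53.9%, 53.5%, 53.7% and 58.2%, against 46.7% for MTF1 and 38.0% for SLC30A1. The log2 difference of MT2A then was 1.66 ± 0.13 (edgeR adjusted p = 0.00325) and that of MT1E 1.09 ± 0.092 (0.00398), both smaller than without the correction and both called. MT1X had 0.44 ± 0.16 (adjusted p = 0.0962), MT1F 0.026 ± 0.20 (0.930) and MTF1 0.094 ± 0.093 (0.479). SLC30A1 turned to 0.26 ± 0.31 (adjusted p = 0.553). The median log2 fold change of the 6 genes was 0.35 here, against -0.15 for all genes tested.

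Other genes of zinc transport were compared in 2 lists, the exporters of the SLC30 family, which move zinc out of the cytosol, and the importers of the SLC39 family, which move it in. Of 6 tested exporters, SLC30A1 included, 0 passed in edgeR (0 at an unadjusted p under 0.05, 0 with DESeq2 and 0 with limma-voom), with a median log2 fold change of -0.36. With both libraries numbered 1 left out, where 33.3% of all genes were called lower, 5 of the 6 were lower and 0 higher (median -0.52). With GC correction plus block SLC30A7, picked after its values were seen, was higher (0.52 ± 0.096, adjusted p = 0.0200) and the median was 0.14. SLC30A4, which encodes an exporter of intracellular vesicles, had 4.35, 1.98 and 2.67 CPM in TPA libraries 1, 2 and 3, against 4.64, 5.43 and 4.85 CPM in DMSO libraries 1, 2 and 3. Every TPA library was below every DMSO library, as in 15.2% of all genes tested. The log2 difference was -0.73 ± 0.34 (edgeR adjusted p = 0.258). It was -0.27 with the GC correction, -0.26 with GC correction plus block, and -0.98 without TPA 1, where it passed (adjusted p = 0.00813). The fit without TPA 1 called 5577 of 22633 genes higher and 6297 lower. The log2 difference of SLC30A9 was -0.42 ± 0.36 (adjusted p = 0.515) and turned to 0.031 with the GC correction, while without TPA 1 it was -0.82 and passed (adjusted p = 0.00206). Of 11 tested importers 1 rose, 0 fell and 10 did not pass, and their median log2 difference was 0.53 (0.21 with GC correction plus block). In edgeR 4 of the 11 had an unadjusted p under 0.05, as did 4814 of all 21825 genes. DESeq2, which called 7.8% of all genes higher, called 4 importers higher and 0 lower, and limma-voom 1 and 0. With both libraries numbered 1 left out, 6 were higher and 2 lower (median 0.86), where 32.2% of all genes were called higher and 33.3% lower. SLC39A13, which encodes an intracellular zinc transporter (chromosome 11, 47407132 to 47416501), had 114, 178 and 163 CPM in TPA libraries 1, 2 and 3, against 62.6, 58.2 and 62.8 CPM in DMSO libraries 1, 2 and 3. Its log2 fold change was 1.31 ± 0.23 (SE, edgeR adjusted p = 0.0498), just inside the threshold. The call was lost with upper-quartile factors (adjusted p = 0.0566), with library size only (0.0546), on the genes with a GC value (0.0502) and when any single library other than TPA 1 was left out (0.0944 to 0.330). The block called 3 of the 11 importers higher, SLC39A7, SLC39A13 and SLC39A14, and 0 lower, where it called 4.58% of all genes higher. With GC correction plus block (9.17% of all genes) these 3 were also higher (edgeR adjusted p = 0.0186, 0.00497 and 0.00902). SLC39A7 and SLC39A14 were picked after their values were seen. SLC39A14, the gene of a zinc and iron importer of the plasma membrane, had 413 ± 16.5 CPM in TPA and 210 ± 39.5 CPM in DMSO (SD, n = 3 each; 0.97 ± 0.21, adjusted p = 0.0651) and passed with the block (0.0278), as did SLC39A7, the gene of a zinc transporter of the endoplasmic reticulum (0.89, adjusted p = 0.0447).

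**Figure D5:**
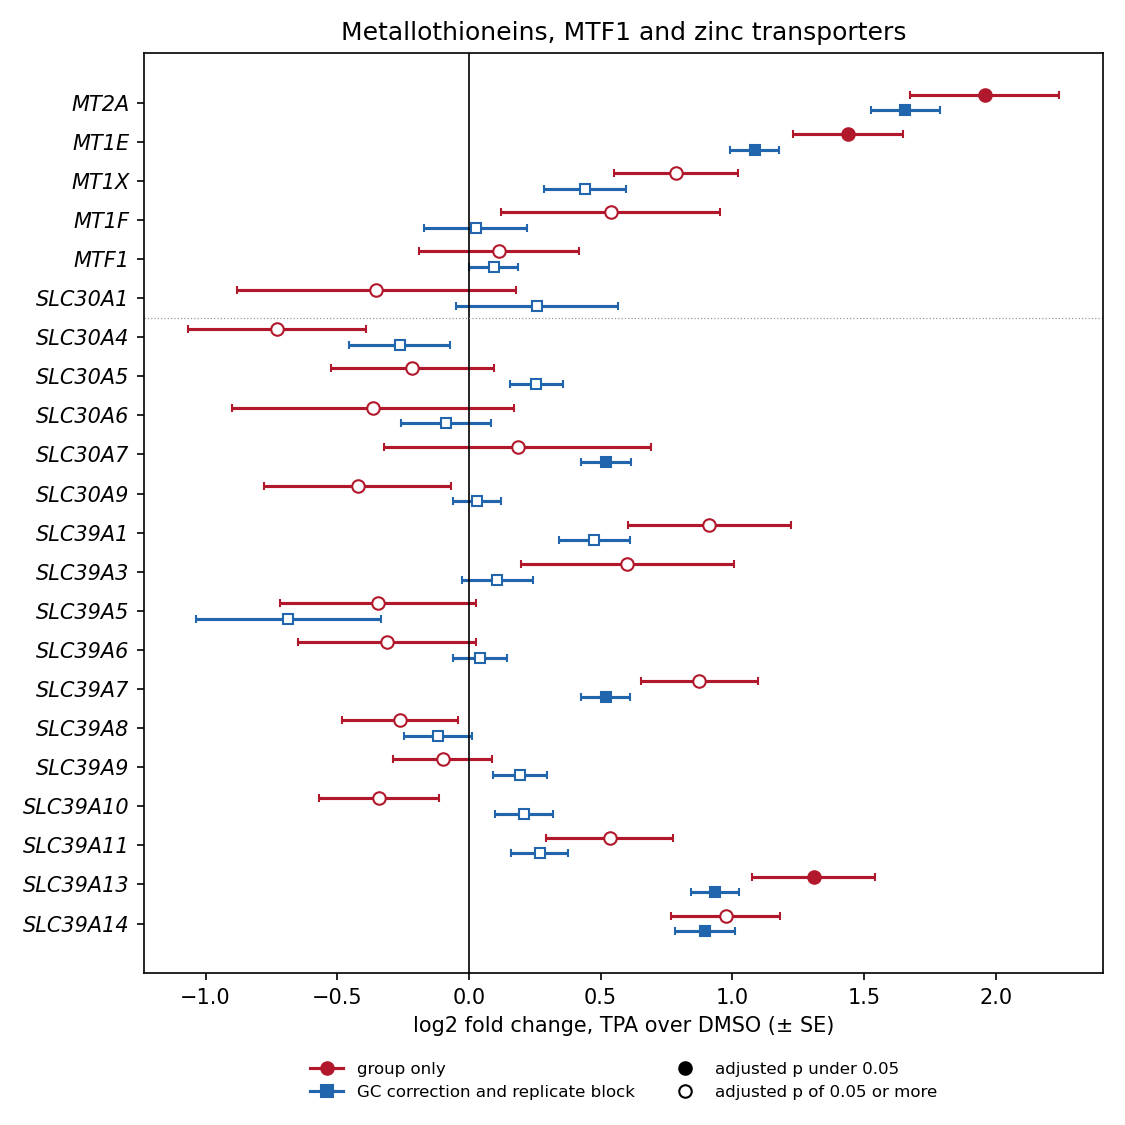
Log2 fold change, TPA over DMSO, with its SE (horizontal axis) for the 6 tested genes of the metallothionein and zinc regulation set (above the dotted line) and for the other tested zinc transporters, from the fit on the group alone (red circles) and from the fit with GC correction and replicate block (blue squares). Filled symbols have an adjusted p under 0.05; MT2A, MT1E and SLC39A13 are filled in both fits.

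The genes whose pattern was most like that of MT2A were listed by the Pearson correlation of log2 CPM over the 6 libraries among 12326 tested genes with an average log2 CPM of at least 1. These 12326 leave out the described genes and names of the clone or locus kind. That name filter also removes some ordinary genes, such as those whose names begin with AP and a digit. The 5 highest were FAM167A, ELOA, MGLL, ATG2A and C2CD2L (r = 0.999 for each). The libraries fall into 2 groups, and 664 of the 12326 genes had r of at least 0.95. Among the metallothioneins MT1E had r = 0.985 with MT2A and MT1X 0.981, while MT1F had 0.315. MTF1 had 0.316 and SLC30A1 -0.0305. MGLL, the gene of monoglyceride lipase, had 232 ± 13.1 CPM in TPA and 83.2 ± 23.0 CPM in DMSO, and ATG2A, an autophagy gene, 274 ± 1.93 and 87.1 ± 28.8 CPM (SD, n = 3 each).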

How the data were processed

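RNA from KYSE150 cells was sequenced in 3 TPA and 3 DMSO libraries. The authors deposited raw counts of reads per gene symbol, not normalized. Per the submitters' processing notes, HISAT2 2.1.0 and HTSeq 0.12.4 were used on hg38/GRCh38. For annotation release, strand setting and read length the entry is: not given in the sources used here. Each control column was taken as the DMSO library with its number. CPM are counts over TMM-scaled library sizes.

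The TPA and DMSO libraries were tested with the quasi-likelihood method of edgeR (edgeR 4.0.16, R 4.3.3; TMM, filterByExpr, group as the only term) over 21825 genes, with Benjamini-Hochberg adjustment at 0.05; SEs are the estimate over the square root of F. The genes described were chosen by name, and they and the lists with earlier results of these data known; named genes are all 10 members, the other metallothionein rows and, from each list, those that passed or else the 2 with the lowest adjusted p. Deviations from the group mean, compared between TPA and DMSO libraries of 1 number, correlated at 0.546, 0.345 and 0.369, above 0.1 in each pair, so a block on the number is given where it changes a call. Because TPA 2 with DMSO 3 (0.374) and TPA 3 with DMSO 2 (0.356) were as high, numbers 2 and 3 are not told apart. Deviations from a group mean cancel out, so a likeness of the libraries numbered 1 alone also raises the values among numbers 2 and 3. The correlations therefore do not show pairing by number, and the labels state none.

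Gene positions, exon lengths and GC content came from GENCODE 29 (GRCh38), which gave 21003 tested genes a GC value. For the GC correction a natural spline (robust, 5 degrees of freedom) was fitted where the average log2 CPM exceeded 2. Alternatives were other scaling factors and filters, DESeq2 1.42.0, limma-voom (limma 3.58.1), the block, leaving out each library, leaving out the libraries numbered 1, the GC correction and a threshold of 0.01. Only the fit on genes with a GC value was outside these planned settings. The GC correction and the block answer features seen in these data, so they were not chosen independently of them. The steps were tested on simulated data. Promoter sequences came from RefSeq on GRCh38.p14.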

Additional observations from a re-analysis of the deposited data

How the results depend on the processing

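MT2A and MT1E kept their direction in every alternative run. Their call held in each that left no library out singly, except at a threshold of 0.01. At 0.01 edgeR called 0 genes in either direction (4814 at an unadjusted p under 0.05). MT2A and MT1E (log2 fold changes of 1.96 and 1.44) each had an edgeR adjusted p of 0.0350 and missed that threshold. With 1 library left out, the log2 fold change ran from 1.82 to 2.31 for MT2A, 1.37 to 1.61 for MT1E, 0.68 to 0.92 for MT1X, 0.27 to 1.01 for MT1F, -0.045 to 0.38 for MTF1 and -0.73 to 0.32 for SLC30A1. Without both libraries numbered 1, MT1X (1.09), MT1F (0.96) and MTF1 (0.26) were also called, and with DESeq2 MT1X (0.89). MTF1 turned to -0.12 with library size only, and the GC correction turned SLC30A1 to 0.17 without the block and 0.26 with it, SLC30A9 to 0.031 in both, and BBS2 to 0.068 and 0.011; the cause was not tested. Both MTF1 and SLC30A1 missed the threshold with the replicate block (0.11 and -0.30), which changed no call of the 6 genes.

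Counts over all genes, 188 higher and 86 lower, moved to 429 and 202 with no filter, 1702 and 915 with DESeq2, 1000 and 1423 with the replicate block, 701 and 671 with the GC correction, 1926 and 2259 with both, and 7216 and 7475 without the libraries numbered 1. Library size only gave 219 lower, and limma-voom 130 lower. With 1 library left out they ran from 0 to 5577 higher and from 0 to 6297 lower. Of 55 tested genes in the 7 comparison lists 2 were higher and 0 lower in edgeR (22 at an unadjusted p under 0.05, against 4814 of all 21825 genes). The calls became 14 and 1 with DESeq2, 13 and 2 with the replicate block, 6 and 1 with the GC correction, 16 and 3 with both, and 32 and 17 without the libraries numbered 1. Upper-quartile factors and the genes with a GC value each gave 1 higher, library size only 0 higher and 1 lower, and the threshold of 0.01 gave 0 higher. With 1 library left out the range was 0 to 23 higher and 0 to 13 lower. Depth limits MT1A, MT1G, MT1H and MT1M, whose counts allow no comparison.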

Other observations

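Directly beyond MT2A lies AC026461.3, a long intergenic noncoding RNA on the opposite strand (chromosome 16, 56609501 to 56611375), with 3 bases between the annotated genes; it was looked up after its values were seen. It had 4.28, 4.60 and 4.04 CPM in TPA libraries 1, 2 and 3, against 1.74, 1.01 and 0.782 CPM in DMSO libraries 1, 2 and 3. The log2 fold change was 1.87 ± 0.36 (SE, edgeR adjusted p = 0.0581, and 0.00763 with the block), close in size to the 1.96 of MT2A. Without a stated strand setting, reads that run past the end of MT2A cannot be told apart from reads of AC026461.3.

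Protein-coding neighbours of the metallothionein cluster on chromosome 16 did not pass: of 7 tested, 0 were called in edgeR (1 at an unadjusted p under 0.05, 0 with DESeq2 and 0 with limma-voom). Of all 21825 genes tested, 4814 had an unadjusted p under 0.05 in edgeR, and DESeq2 called 1702 higher and 915 lower. HERPUD1, a gene of the endoplasmic reticulum stress response, had 593, 324 and 332 CPM in TPA libraries 1, 2 and 3, against 293, 66.0 and 63.4 CPM in DMSO libraries 1, 2 and 3 (log2 fold change 1.56 ± 0.63, adjusted p = 0.202, and 0.00596 with the block). BBS2, on the other side of the cluster, differed by -0.44 ± 0.21 on the log2 scale (adjusted p = 0.264), which turned to 0.068 with the GC correction. The block, with 4.58% of all genes called higher, called 1 of the 7 neighbours higher, HERPUD1. With GC correction plus block (9.17% of all genes) HERPUD1 (1.79 ± 0.27, edgeR adjusted p = 0.0123) and OGFOD1 (0.50 ± 0.092, 0.0200) were higher. OGFOD1 was picked after its values were seen.

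Among 13 tested genes of the metal and heat stress response 1 rose, HSPA8, which encodes a constitutive heat shock protein, with 2138 ± 152 CPM in TPA and 965 ± 104 CPM in DMSO (SD, n = 3 each; log2 1.15 ± 0.18, edgeR adjusted p = 0.0402). The call was lost with library size only (0.0524) and when any single library other than TPA 1 was left out (0.0683 to 0.288). The block, with 4.58% of all genes called higher, called 5 of the 13 higher, adding HMOX1, HSPA1A, HSPA1B and DNAJB1. With GC correction plus block (9.17% of all genes) HSPA1A (adjusted p = 0.0666) and HSPA1B (0.0657) did not pass, and GCLM and TXNRD1 did; HSPA1A and HSPA1B are near-identical copies whose counts are uncertain. Of 7 tested glucocorticoid response genes 0 passed (4 at an unadjusted p under 0.05, 3 with DESeq2 and 0 with limma-voom). Of all 21825 genes tested, edgeR gave 4814 an unadjusted p under 0.05, and DESeq2 called 1702 higher and 915 lower. FKBP5, a glucocorticoid-induced chaperone gene, had 9.19 ± 0.894 CPM in TPA and 18.6 ± 2.19 CPM in DMSO (-1.01 ± 0.22, adjusted p = 0.0672, and 0.0220 with the block), while SGK1, a kinase gene also induced by glucocorticoids, had 309 ± 207 and 49.2 ± 45.3 CPM (2.65 ± 0.73, adjusted p = 0.0970, and 0.000224 with the block; SD, n = 3 each). The block called 2 genes of this list higher, SGK1 and DUSP1, and 1 lower, FKBP5. With GC correction plus block FKBP5 was -0.56 ± 0.19 and did not pass (adjusted p = 0.0839), while SGK1, DUSP1 and ERRFI1 were higher and TSC22D3 was lower. Of 10 tested copper handling genes 0 passed (4 at an unadjusted p under 0.05, 2 with DESeq2 and 0 with limma-voom), led by SLC31A2 (0.84 ± 0.24, adjusted p = 0.104, and 0.0494 with the block) and ATOX1, a copper chaperone gene (0.80 ± 0.25, 0.121). ATP7A, the gene of a copper exporter, was picked after its values were seen and did not pass (-1.32 ± 0.48, edgeR adjusted p = 0.172). With the block, which called 6.52% of all genes lower, ATP7A was lower (-1.56 ± 0.35, adjusted p = 0.0202). With GC correction plus block (9.17% of all genes higher, 10.8% lower) SLC31A2 and ATOX1 (adjusted p = 0.0437) were higher. In that fit ATP7A (-0.98 ± 0.17, adjusted p = 0.0165) and ATP7B were lower.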
